A study of Drosophila melanogaster with 9 samples.

Results

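The replication origin licensing genes of the fly ovary were described here as 10 genes taken by name from a table of 17199 genes. They comprise the 6 subunits of the origin recognition complex (Orc1 to Orc6), the helicase loaders Cdc6 and dup, the inhibitor geminin and the kinase Cdc7. All 10 were found, and all 10 were among the 10662 genes with an adjusted p. The study sequenced ribosomal-RNA-depleted total RNA from Drosophila melanogaster ovaries in 9 libraries, 3 from each of 3 lines. The control line, Pcif1 BG02557, carries the P-element P{GT1} in the first intron of Pcif1, whose human relative was found as a partner of the phosphorylated C-terminal domain of RNA polymerase II. Both mutant lines were made by CRISPR-Cas9 editing of the Pcif1 nuclear localization signal in a w1118 background, and were backcrossed to the P-element line to remove other mutations. The M6stop allele shifts the reading frame into an early stop codon. The F9ΔNLS allele has an in-frame loss of that signal and encodes a protein of 829 amino acids. Each mutant line is 1 selected allele, the RNA came from 3 pairs of ovaries per line, and the sources used here give neither the age of the flies nor the zygosity of the alleles. The question was how ovarian transcripts in each mutant line differ from those in the control line.

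Licensing prepares a replication origin before S phase. The origin recognition complex binds DNA and, with Cdc6 and Cdt1, loads the MCM helicase as an inactive double ring. Geminin binds Cdt1 and blocks new loading once replication has begun, and the kinase Cdc7 with its partner Dbf4 activates the loaded helicase. In the fly ovary the same proteins serve dividing germ cells and follicle cells, and the amplification of the chorion gene clusters in late follicle cells.

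No single library's value is given for any gene below, because the names of the library columns match no sample label. The authors' deposited table gives each gene's mean normalized count over all libraries, its log2 change in each mutant line over the control line and an adjusted p, with no standard error. The words rose and fell are kept for genes with a DESeq2 adjusted p under 0.05 per the authors' deposited table, and changes are given as log2 differences from the control line unless a multiple of the control level is named. The log2 changes may have been shrunk toward 0 by the authors, in which case they understate the differences. Both comparisons use the same control libraries, so they are not independent of each other, and no test set one mutant line directly against the other. As a check of the labels, Pcif1 fell by 2.51 in M6stop (DESeq2 adjusted p listed as 0) and had a value of 0.02 in F9ΔNLS (DESeq2 adjusted p = 0.83) per the authors' deposited table. The level of Pcif1 RNA does not tell the F9ΔNLS libraries from the control libraries and is no check of that label.

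Most licensing genes had less RNA in F9ΔNLS ovaries than in control ovaries. All 6 origin recognition complex genes fell, as did dup and geminin, while Cdc7 rose and Cdc6 did not pass the test. The 9 calls among 10 genes stand beside 23.4% of all tested genes called in F9ΔNLS. The 8 falls stand beside 11.9% of tested genes that fell, and the 1 rise beside 11.6% that rose. The median log2 change of the 10 genes was -0.51 per the authors' deposited table, against 0.004 for all tested genes. These genes were chosen with results of the series already known, so the counts describe them and no test of the list was made. In bulk RNA, fewer cells that express a gene and less of its RNA per cell cannot be told apart.

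In M6stop ovaries none of the 10 genes passed. By the authors' DESeq2 test 5.52% of all tested genes were called in that line, 3.48% upward and 2.04% downward. The 10 values lay between -0.12 and -0.04 with a median of -0.08 per the authors' deposited table, and the median of all tested genes was -0.0007. All 10 were negative, as were 50.9% of tested genes. The lowest DESeq2 adjusted p among them was 0.36, that of Orc6, per the authors' deposited table. Unadjusted p-values could be rebuilt from the adjusted ones only as upper bounds, and 0 of the 10 bounds were under 0.05. A bound above 0.05 does not show that the p-value itself was above it. Without a standard error, these values do not show that the RNA stayed level.

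**Figure D1:**
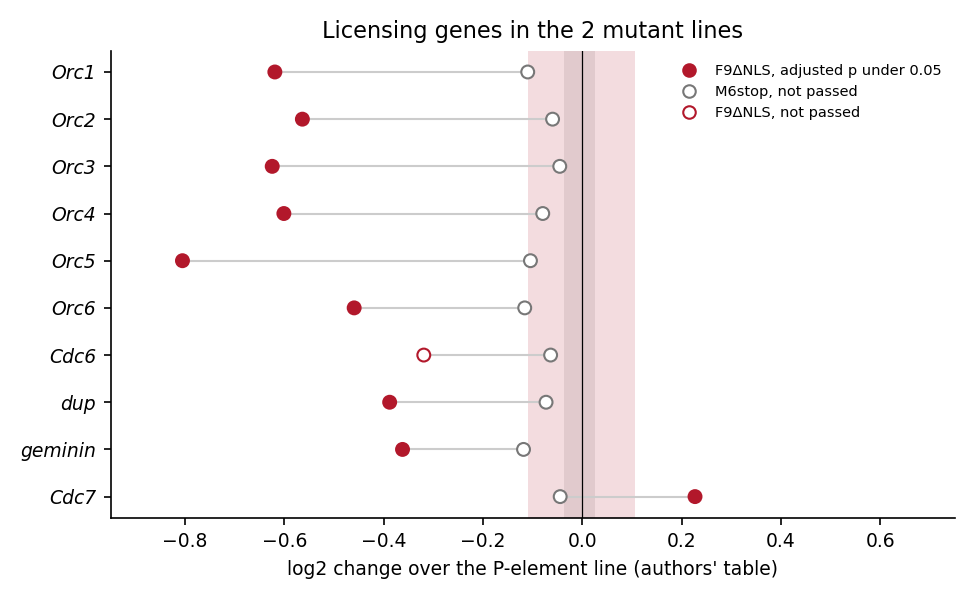
Log2 change of each of the 10 licensing genes over the P-element line, in M6stop (grey) and F9ΔNLS (red), from the authors' deposited table. Filled points passed an adjusted p of 0.05, open points did not, and the shaded bands span the middle quartiles of all tested genes in each comparison. The M6stop values lie between -0.12 and -0.04, and the F9ΔNLS values between -0.81 (Orc5) and 0.23 (Cdc7).

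The origin recognition complex genes had the largest decreases of the 10. Orc5, which encodes a subunit of the AAA+ ATPase family, fell by 0.81 in F9ΔNLS, to 0.572 times the control level (DESeq2 adjusted p = 2.0e-05), per the authors' deposited table. Its M6stop value was -0.10 (DESeq2 adjusted p = 0.45) per the authors' deposited table. A change lower than that of Orc5 in F9ΔNLS was listed for 1.32% of tested genes.

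Orc3, the core subunit gene first described as latheo, fell by 0.62, to 0.649 times the control level, in F9ΔNLS (DESeq2 adjusted p = 3.1e-05), with an M6stop value of -0.05, per the authors' deposited table. Orc1, which encodes the subunit with ATPase activity that contacts Cdc6, fell by 0.62, to 0.651 times the control level (DESeq2 adjusted p = 0.0020), with an M6stop value of -0.11, per the authors' deposited table. Orc4 encodes another AAA+ family subunit and fell by 0.60, to 0.659 times the control level (DESeq2 adjusted p = 0.0037), with an M6stop value of -0.08, per the authors' deposited table. These 3 genes were within 0.03 of each other in F9ΔNLS, and with no standard error their order is not resolved.

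Orc2, known from the fly k43 mutants with reduced chorion amplification, fell by 0.56, to 0.677 times the control level (DESeq2 adjusted p = 0.0057), with an M6stop value of -0.06, per the authors' deposited table. Orc6, the smallest subunit, which in flies also acts in cytokinesis, fell by 0.46, to 0.727 times the control level (DESeq2 adjusted p = 0.025), with an M6stop value of -0.12, per the authors' deposited table. Orc6 also had the fewest reads of the 10, with a mean of 459 normalized counts per the authors' deposited table. The 6 subunit genes together had a median log2 change of -0.61 in F9ΔNLS and -0.09 in M6stop per the authors' deposited table.

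The 2 loader genes had values closer to 0 in F9ΔNLS than the 6 subunit genes, a difference that was not tested. The Cdt1 gene dup (double parked) fell by 0.39, to 0.764 times the control level, in F9ΔNLS (DESeq2 adjusted p = 0.014), with an M6stop value of -0.07, per the authors' deposited table. Cdc6, which encodes the AAA+ ATPase that joins the complex at the origin, had a log2 change of -0.32 in F9ΔNLS (DESeq2 adjusted p = 0.059) and of -0.06 in M6stop (DESeq2 adjusted p = 0.65) per the authors' deposited table. Its unadjusted p in F9ΔNLS, rebuilt as an upper bound, was 0.015. In F9ΔNLS 8.27% of tested genes had a lower value than Cdc6.

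The inhibitor and its target fell side by side. The geminin gene fell by 0.36, to 0.778 times the control level, in F9ΔNLS (DESeq2 adjusted p = 0.0032), close to the value of dup, per the authors' deposited table. In M6stop geminin had the lowest value of the 10, -0.12 (DESeq2 adjusted p = 0.41), per the authors' deposited table.

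Cdc7, the catalytic subunit of the kinase that activates the loaded helicase, was the 1 gene of the 10 that rose. Its F9ΔNLS value was 0.23, a rise of 17.0% (DESeq2 adjusted p = 0.0074), and its M6stop value was -0.04 (DESeq2 adjusted p = 0.76), per the authors' deposited table. A larger absolute change than that of Cdc7 was listed for 25.4% of tested genes in F9ΔNLS. The gene chif (chiffon), which encodes the fly Dbf4-related partner of this kinase, had a value of 0.04 in F9ΔNLS (DESeq2 adjusted p = 0.81) per the authors' deposited table.

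**Figure D2:**
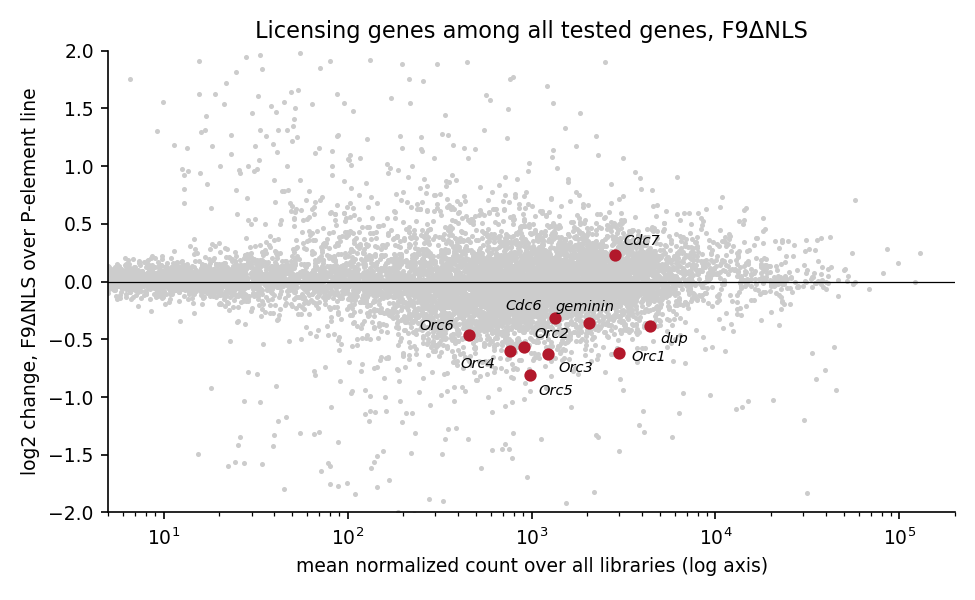
Log2 change in F9ΔNLS over the P-element line (vertical axis) against the mean normalized count over all libraries (horizontal log axis), from the authors' deposited table, for the tested genes (grey) and the 10 licensing genes (red). Of the tested genes 620 lie outside the axes, and the 6 origin recognition complex genes lie at the lower edge of the dense cloud while Cdc7 lies inside its upper part.

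Genes of similar abundance had medians near 0 in F9ΔNLS. For each licensing gene the tested genes with a mean count within 2-fold of its own were taken, 1612 to 3443 genes. Their median log2 change in F9ΔNLS lay between -0.05 (Orc6) and 0.03 (dup), and between 12.0% (dup) and 19.2% (Orc6) of them fell. Relative to these genes the F9ΔNLS change of Orc5 was -0.77 and that of Orc6 was -0.41, while that of Cdc7 was 0.21.

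Per kilobase of the longest annotated transcript, the 10 genes spanned a 5.21-fold range of level. The level is the mean normalized count of the authors' deposited table, over all 9 libraries, divided by that length, and the median tested gene had 313 per kb. The geminin transcript was highest at 1942 per kb, and that of dup followed at 1405 per kb. Orc1 had 952 per kb and Cdc7 had 915 per kb, each a mean over all 3 lines, in which these genes did not change alike. The other 5 subunit genes and Cdc6 formed a lower group, from 373 per kb for Orc3 to 585 per kb for Orc5, with Orc2 at 457, Orc6 at 472, Orc4 at 475 and Cdc6 at 540 per kb. Orc1 had the highest level of the 6 subunit genes, 2.55-fold above Orc3. The level of Orc3 depends on the transcript used, and was 431 per kb with the mean length of its annotated transcripts. No spread between libraries is available for these levels, so neighbours in the order are not distinguished.

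**Figure D3:**
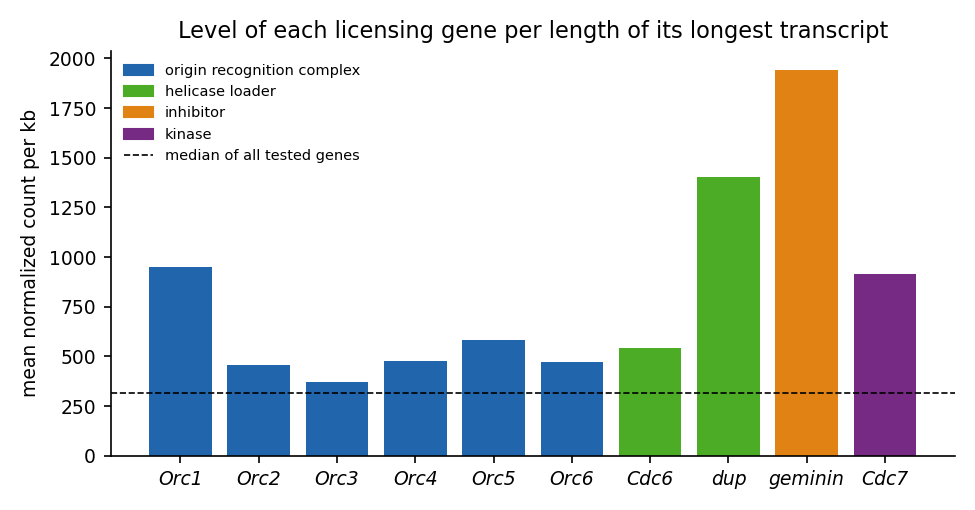
Mean normalized count per kilobase of the longest annotated transcript, for each licensing gene, coloured by role, with the median of all tested genes as a dashed line. The bars range from 373 per kb (Orc3) to 1942 per kb (geminin), all above the dashed line at 313 per kb, and have no error bars because no spread between libraries is available.

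The genes are compact in the annotation (Ensembl release 115, BDGP6.54), and most lie on one chromosome arm. Their spans run from 1028 bp (Orc6) to 5169 bp (Cdc7), and the longest transcript has 2 exons in Orc4, Orc5, Orc6, Cdc6 and geminin. The proteins range from 192 amino acids for geminin and 257 for Orc6 to 924 for Orc1. Of the 10 genes 6 lie on 2R, which holds 20.4% of tested genes. On 2R 11.1% of tested genes fell in F9ΔNLS, beside 11.9% of all tested genes. The others lie on 2L (Orc5, 13829837 to 13831576), 3R (Orc2, 13964885 to 13967075), 3L (Cdc6, 8631509 to 8634069) and X (Cdc7, 6654541 to 6659709). Cdc6 is 12.1 Mb from Pcif1, and it is the only one of the 10 on the arm of the edited gene.

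**Figure D4:**
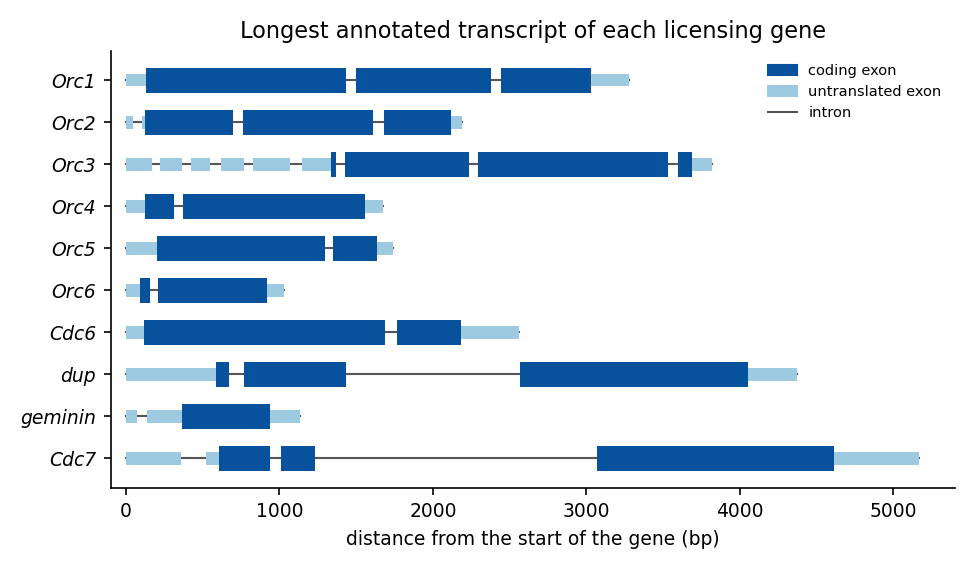
Longest annotated transcript of each licensing gene, drawn from the start of the gene in its direction of transcription, with coding exons in dark blue, untranslated exons in light blue and introns as lines. Spans run from 1028 bp (Orc6) to 5169 bp (Cdc7), and the Orc3 transcript begins with exons outside its coding part.

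Exon bases are shared with a neighbour in 7 of the 10 genes, and the sources used here do not say whether reads were assigned by strand. Orc3 is the clearest case. One of its 2 annotated transcripts has the same exons as the transcript of CG34315, and the 798 coding bases of CG34315 lie inside it ahead of the Orc3 coding part. Reads of that transcript therefore cannot be told apart between the genes, and the value of Orc3 is uncertain to that extent.

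The overlaps of dup, Orc5 and Orc6 are short. The start of dup overlaps the start of SRPK on the other strand by 265 bp, and 5.04% of dup exon bases are shared. SRPK, an SR-protein kinase gene, rose by 0.21 in F9ΔNLS (DESeq2 adjusted p = 9.3e-04) per the authors' deposited table, opposite to dup. Orc5 shares 5.63% of its exon bases with PolG2, a mitochondrial DNA polymerase subunit gene with a value of 0.24 (DESeq2 adjusted p = 0.067) per the authors' deposited table. Orc6 shares 5.66% with Sting, an innate immunity gene that fell by 0.33 (DESeq2 adjusted p = 0.039) in F9ΔNLS per the authors' deposited table. Without Orc3, Orc5, Orc6 and dup, an alternative chosen after the data were seen, 4 of the remaining 6 genes fell in F9ΔNLS and 1 rose. Of all tested genes 11.9% fell and 11.6% rose in that line.

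Cdc6 lies wholly inside the span of Zasp66, a muscle Z-disc gene on the other strand, without sharing exon bases. Zasp66 had a value of 0.42 in F9ΔNLS (DESeq2 adjusted p = 0.077) and of 0.08 in M6stop (DESeq2 adjusted p = 0.38) per the authors' deposited table. Reads from Zasp66 introns and from Cdc6 cannot be told apart without strand, and their part in the value of Cdc6 was not tested.

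Neighbours that start close by on the other strand had F9ΔNLS values of either sign. FLASH, a histone locus body gene, begins 198 bp from Orc3 and had a value of -0.29 in F9ΔNLS (DESeq2 adjusted p = 0.070) per the authors' deposited table. Arpc1, an actin-nucleation gene 96 bp from the start of Orc5, had a value of 0.11 (DESeq2 adjusted p = 0.30) per the authors' deposited table. CG3226, which begins 293 bp from Cdc7, fell by 0.26 (DESeq2 adjusted p = 0.024) per the authors' deposited table, while Cdc7 rose.

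Most genes of the helicase that the licensing proteins load fell as well in F9ΔNLS. Of 15 genes for the MCM helicase and its activation, 11 fell and 0 rose, with a median of -0.39 per the authors' deposited table. Of all tested genes 11.9% fell and 11.6% rose in F9ΔNLS, and 2.04% fell and 3.48% rose in M6stop. These shares stand beside the counts of this list and of each list below. The MCM subunit genes Mcm5 (-0.69, DESeq2 adjusted p = 5.6e-07), Mcm3 (-0.57), dpa (-0.43), which encodes the fly Mcm4, and Mcm2 (-0.43) fell per the authors' deposited table. In M6stop 1 of the 15 fell, Mcm5, by 0.31 (DESeq2 adjusted p = 0.047), and the median was -0.10 per the authors' deposited table.

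Of 14 tested regulators of re-licensing and Cdt1 degradation, 8 fell and 1 rose in F9ΔNLS, with a median of -0.37 per the authors' deposited table. The falls included fzy (-0.60) and fzr (-0.42), activators of the anaphase-promoting complex, the mitotic kinase gene Cdk1 (-0.44) and PCNA (-0.39), the sliding clamp, per the authors' deposited table. The 1 rise was pic (0.19, DESeq2 adjusted p = 0.0043) per the authors' deposited table. Of the others, l(2)dtl fell (-0.45), while Cul4 (0.01) and Roc1a (0.07) were among 5 that did not pass, per the authors' deposited table. In M6stop 0 of the 14 were called by DESeq2, with at least 1 at an unadjusted p under 0.05. Of all tested genes 5.52% were called in M6stop, and in so short a list a count of 0 is close to that share.

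Some factors known for chorion gene amplification and under-replication fell in F9ΔNLS, and most did not pass. Of 14 such genes 5 fell and 0 rose in F9ΔNLS, with a median of -0.16 per the authors' deposited table. They included the retinoblastoma-family gene Rbf2 (-0.57), hd (humpty dumpty, -0.52), which is needed for amplification, lin-52 (-0.38) and E2f2 (-0.37) per the authors' deposited table. In M6stop 0 of the 14 were called by DESeq2, beside 5.52% of all tested genes, with at least 0 at an unadjusted p under 0.05.

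Among 6 factors listed for the DRE and E2F promoter elements, which many fly replication genes carry, 3 fell and 1 rose in F9ΔNLS. BEAF-32 (-0.48), E2f2 (also in the amplification list) and Dref (-0.20) fell, and Trf2 rose (0.30), per the authors' deposited table. The activator gene E2f1 had a value of 0.03 (DESeq2 adjusted p = 0.75) and its partner Dp one of 0.07 (DESeq2 adjusted p = 0.53) in F9ΔNLS per the authors' deposited table. In M6stop 0 of the 6 were called by DESeq2, beside 5.52% of all tested genes, with at least 1 at an unadjusted p under 0.05.

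**Figure D5:**
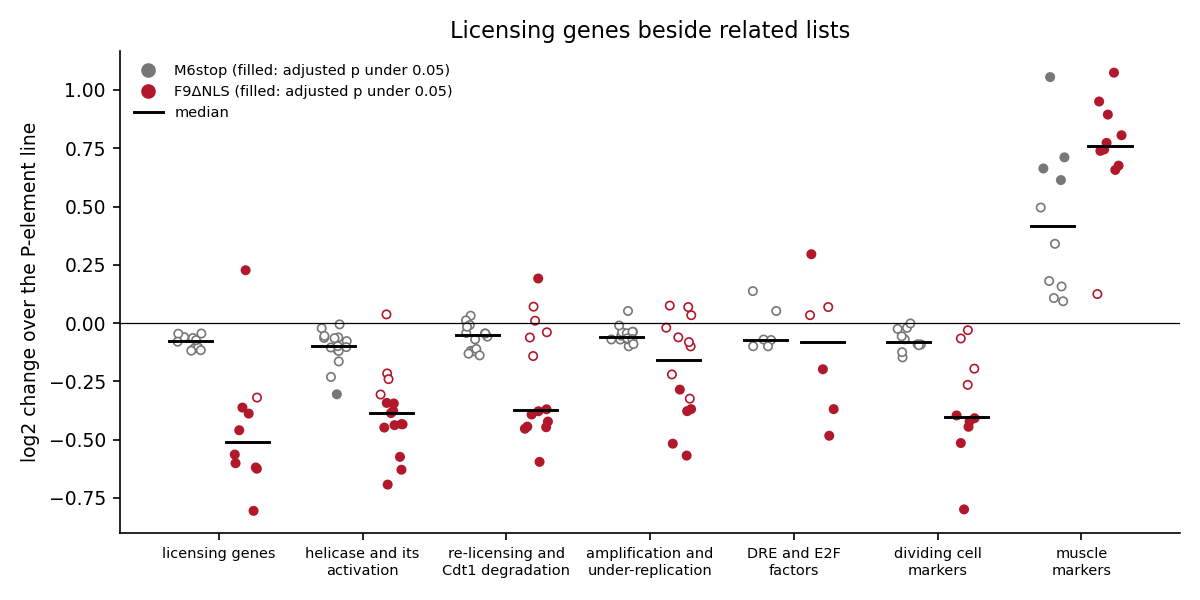
Log2 change over the P-element line, from the authors' deposited table, of the licensing genes and of the members of 6 related lists, in M6stop (grey) and F9ΔNLS (red). Filled points passed an adjusted p of 0.05 and the bars are medians. In F9ΔNLS the medians of the licensing genes (-0.51), helicase genes (-0.39) and dividing-cell markers (-0.40) lie below 0. So do those of the re-licensing (-0.37), amplification (-0.16) and DRE and E2F (-0.08) lists, and that of the muscle markers (0.76) lies above.

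Markers of dividing and other cells moved in the same libraries. Of 10 genes listed as markers of dividing cells 6 fell and 0 rose in F9ΔNLS, with a range of -0.80 to -0.03 per the authors' deposited table. They included aurB (-0.80), CycB3 (-0.51), twe (-0.44) and aurA (-0.40), whereas CycB (-0.07) and stg (-0.03) did not pass, per the authors' deposited table. Of 10 muscle markers 9 rose and 0 fell in F9ΔNLS, and 4 rose and 0 fell in M6stop. In M6stop 0 of the 10 dividing-cell markers (median -0.08) and 0 of the 10 germline markers were called by DESeq2, beside 5.52% of all tested genes. Each of these lists had at least 0 at an unadjusted p under 0.05. The follicle-cell markers Vm26Ab (0.84) and psd (0.63) rose in M6stop, 2 of 10, per the authors' deposited table. In F9ΔNLS psd (-0.78) and Vm26Aa (-0.85) fell, and tj (0.53) and Fas3 (0.48) were among 3 that rose, per the authors' deposited table. The 10 germline markers, with 4 rises and 1 fall, and the 10 follicle-cell markers, with 3 rises and 2 falls, did not move one way in F9ΔNLS. Their mean counts were at least 23.8 and 27.7 normalized counts per the authors' deposited table, so all these markers of the labelled tissue were detected. Of 8 fat-body markers 3 rose in F9ΔNLS (Fbp1, Fbp2 and FASN1) and 4 in M6stop (Apoltp, CG6910, Obp99a and apolpp), and 0 fell in either. The genes that rose thus differed between the lines. The part of these cell types in the change of the licensing genes was not tested. Nor was it tested how far the listed genes mark dividing cells in an ovary.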

How the data were processed

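RNA from 9 ovary libraries, 3 per line, was processed by the authors. The submitters' processing notes name the build BDGP6 and the tools DESeq2 1.25.10, DESeq, Salmon 1.3.0 and R 3.6.3, but not what each was used for. The mean normalized count (a signal value), the log2 changes and the adjusted p-values were deposited by the authors, per the file headers. Base 2 of the logarithm was assumed, and the sources used here do not state shrinkage, strand setting or adjustment method. A further 9 columns of library values carry names that match no label and were not used, so the depth of each library is unknown, no model was refitted and no sequence is shown.

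The 10 genes and the lists were chosen with earlier results of these data known. Genes were named by rule: the 10 genes, Pcif1, and up to 4 called genes per list and comparison with the smallest adjusted p. Neighbours within 500 bp, chif, pic, l(2)dtl, Cul4, Roc1a, E2f1, Dp, CycB and stg were named after their values were seen. The list entry cdt2 matched no gene by name. Python 3.11.15 with pandas 2.3.3 computed counts, medians and levels per kilobase, and counting and p-rebuilding were tested on simulated data. Unadjusted p-values were rebuilt as upper bounds, assuming a Benjamini-Hochberg adjustment over the 10662 genes. Annotation was matched by gene ID for 17063 genes and by symbol and chromosome for 50 more, Orc1 among them. The 3 libraries of a line are biological replicates per the labels, and the DESeq2 adjusted p-values rest on their spread.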

Additional observations from a re-analysis of the deposited data

How the results depend on the processing

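The count of licensing genes called in F9ΔNLS was 7 at an adjusted p under 0.01 (14% of all tested genes), 10 at one under 0.1 (30.2%), and 8 with the adjusted p doubled for the 2 comparisons (18.5%). It was 9 with a minimum mean of 100 normalized counts (29.2% of the genes tested there) or a minimum absolute log2 change of 0.2 (21.1%). Neither filter could change the count. The lowest mean was 459 (Orc6) and the smallest absolute change in F9ΔNLS was 0.23 (Cdc7), per the authors' deposited table. Cdc6 passed only at 0.1, Orc6 and dup were lost at 0.01, and Orc6 was lost with doubling. Without the 4 genes that share at least 5% of their exon bases with another gene, the count was 5 of 6, beside 23.4% of all tested genes. It was lower because fewer genes were counted. In M6stop the count was 0 under each of these settings, beside 3.29%, 7.15%, 4.19%, 5.88% and 4.93% of all tested genes under the first 5 in the same order. Only the threshold of 0.1 could have raised it, because the other settings can only remove genes. The lowest DESeq2 adjusted p of the 10 genes in M6stop was 0.36 per the authors' deposited table. Subtracting the median of all tested genes, or of genes with a similar mean count, left the sign of each gene's change as it was in both comparisons. No sign could turn, because each of these medians was smaller in size than the smallest change of the 10 genes in that comparison. With the mean transcript length the level per kilobase moved by less than 1.5 times for Orc3, dup, geminin and Cdc7. It could not move for Orc1, Orc2, Orc4, Orc5, Orc6 and Cdc6, which each have 1 annotated transcript. No paired analysis was possible because the library columns carry no replicate number, and for the same reason leaving out a replicate, another normalization and edgeR's test were not run. Without standard errors or library depths, the smallest change that could have been seen is unknown.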
